A study of Mus musculus with 2 samples.

Results

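The subunits of the mitochondrial respiratory chain and of ATP synthase were examined in regulatory T cells (Treg) of 2 Stat3 genotypes. The set held genes whose symbols follow the family names of nuclear-encoded subunits of complexes I to V. Only probe sets that the platform annotation pairs with a single gene symbol were used. The set came to 81 genes and 164 probe sets, of 18194 genes and 45101 probe sets in all. For each gene the probe set brightest on average over the 2 arrays was taken. By complex, 33 genes belonged to complex I, 4 to complex II, 8 to complex III, 19 to complex IV and 17 to complex V. Ndufa4 and Ndufa4l2 carry complex I names and were counted with complex IV, where the Ndufa4 protein resides. A further 9 probe sets paired with a subunit and another gene at once were not used, and Cox7b was not analysed here. Subunits with symbols outside those families were not included, so the complexes are not covered in full.

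Spleens and lymph nodes of female mice, 6 to 8 weeks old, were the source of the Treg, which were isolated by cell sorting. The control genotype was Foxp3 Cre/wt with Stat3 fl/wt, in which a single Stat3 allele is flanked by loxP sites. The other was Foxp3 Cre/wt with Stat3 fl/fl, in which both alleles are. Both genotypes carried Cre at 1 of their Foxp3 alleles (given in the sample labels as Cre/wtS). Foxp3 lies on the X chromosome, and female cells silence 1 X, so a share of the Treg in such mice is expected to lack Cre. The sources used here do not say whether the sort selected Cre-expressing cells or how many mice were pooled. There was 1 array per genotype, so no difference below has a replicate check, no p-value is given, and the number of arrays limits the precision.

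The respiratory chain passes electrons from NADH (complex I) and succinate (complex II) through ubiquinone, complex III and cytochrome c to oxygen at complex IV, and 3 of these complexes pump protons as they do so. ATP synthase, complex V, lets the protons return and makes ATP. Most subunits are encoded in the nucleus, and a small core is encoded in mitochondrial DNA. Treg are known to rely on mitochondrial respiration more than activated conventional T cells do. Several subunits of complex IV exist as isoforms, with a widely expressed form and a form found mainly in striated muscle, lung or testis. Stat3 has itself been described in mitochondria, and Ndufa13, an accessory subunit of complex I also called GRIM-19, is known to bind it.

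The deposited values are on a log2 scale, and a gene counted as measured if either array read log2 5 or more. Values under 5 lie at the dense low end of the scale and have no order. Hybridisation differs between probe sets, so the levels of different genes given here are readings of their own probe sets and not relative amounts of RNA. Of the 81 subunits, 72 were measured, or 88.9%, against 53.7% of all genes. All members of complexes II, III and V, 32 of 33 in complex I and 11 of 19 in complex IV were measured.

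Isoforms of complex IV subunits differed in whether they were measured. All 8 tissue forms, with Ndufa4l2 counted among them, lay under log2 5 in both arrays, between 1.34 and 3.32. None of their 10 probe sets was measured. On their brightest probe sets the 6 widely expressed partners read 10.48 to 15.52, and 10 of their 11 probe sets were measured. The exception, a dimmer probe set of Cox8a, lay at 2.23 and 2.36 (fl/wt value first), within the range of the tissue forms. A measured gene can thus have a probe set under log2 5, and most tissue forms had a single probe set. Whether the probe sets of the tissue forms detect their RNA was not tested. Cox4i1, the common form of subunit 4, read 14.50 in fl/wt against 14.51 in fl/fl, and Cox4i2, its lung form, 2.35 and 2.36. Cox6a1 stood at 15.52 and 15.51, the highest mean of the set, and its heart and skeletal muscle form Cox6a2 at 2.15 and 2.27. Both arrays thus read the common form well above the level of 5 and the tissue form below it. For subunit 6b, the common Cox6b1 read 15.11 and 15.10 and the testis form Cox6b2 2.51 and 2.53. For subunit 7a, Cox7a2 read 14.40 and 14.38, and the muscle form Cox7a1 3.07 and 3.32. Cox7a2l, a relative of Cox7a2 that joins complexes III and IV into supercomplexes, read 14.07 and 14.01. The Cox7a1 value is the highest among the tissue forms and still lies in the range without order. For subunit 8, Cox8a read 10.51 and 10.48, the muscle form Cox8b 2.73 and 2.74, and the testis form Cox8c 1.65 and 1.66. The testis gene Cox7b2 was at 2.30 and 2.31. Ndufa4 read 12.59 in both arrays, and its hypoxia-inducible relative Ndufa4l2 1.34 and 1.35. All 4 striated muscle markers examined (Ckm, Acta1, Myh2 and Tnnt3) and all 4 male germ cell markers (Prm1, Prm2, Tnp1 and Ldhc) were under log2 5 in both arrays as well. The same isoform was measured in each genotype for every pair.

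**Figure D1:**
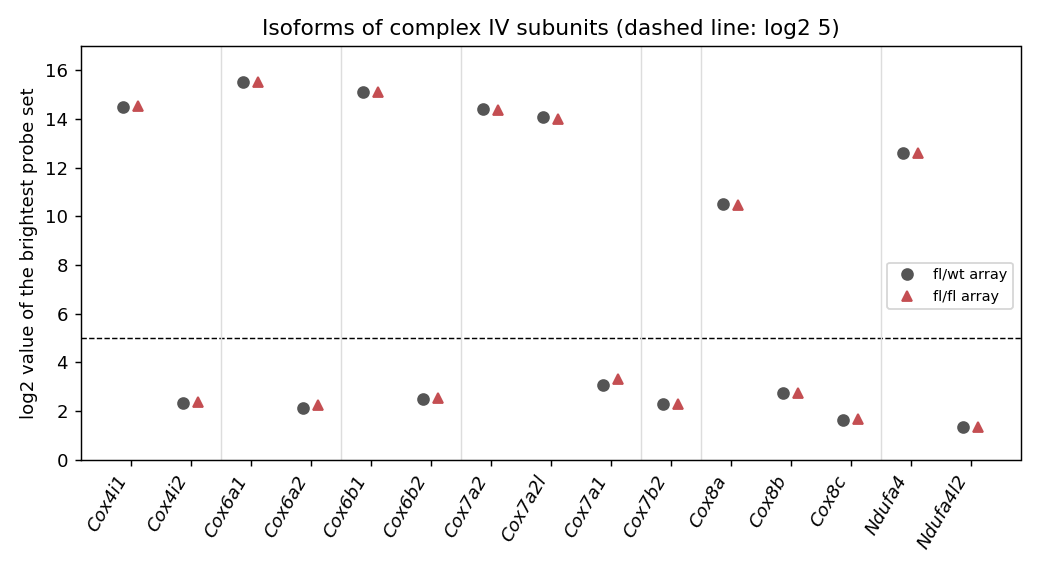
Log2 value (vertical axis) of the brightest probe set of each complex IV isoform in the fl/wt array (circles) and the fl/fl array (triangles), with vertical lines between isoform groups and a dashed line at log2 5. The 8 tissue forms, counting Ndufa4l2, lie between 1.34 and 3.32, and every widely expressed form lies at 10.48 or above, in both arrays.

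The promoter sequences of 2 such pairs are shown as examples of pairs that differ in whether they were measured. Windows from 250 bases before to 50 after the start came from RefSeq (GRCm38.p6), and 66 of the 81 subunits had at least 1. The 250 bases before the start are printed 5' to 3' on the gene's strand, with CG dinucleotides in capitals. Cox7a2 lies at chr9:79759854-79760103 (minus strand), Cox7a1 at chr7:30183921-30184170 (plus strand), Cox8a at chr19:7217617-7217866 (minus strand) and Cox8b at chr7:140900447-140900696 (minus strand).
Cox7a2: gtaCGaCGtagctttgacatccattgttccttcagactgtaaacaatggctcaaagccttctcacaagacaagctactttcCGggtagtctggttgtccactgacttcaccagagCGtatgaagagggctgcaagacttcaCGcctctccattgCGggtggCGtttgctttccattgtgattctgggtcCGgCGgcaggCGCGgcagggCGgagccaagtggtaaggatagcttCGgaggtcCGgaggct
Cox7a1: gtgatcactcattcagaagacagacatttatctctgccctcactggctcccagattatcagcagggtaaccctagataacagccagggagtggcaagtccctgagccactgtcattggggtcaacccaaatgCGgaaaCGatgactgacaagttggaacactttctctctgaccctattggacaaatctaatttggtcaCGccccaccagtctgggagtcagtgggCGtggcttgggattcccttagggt
Cox8a: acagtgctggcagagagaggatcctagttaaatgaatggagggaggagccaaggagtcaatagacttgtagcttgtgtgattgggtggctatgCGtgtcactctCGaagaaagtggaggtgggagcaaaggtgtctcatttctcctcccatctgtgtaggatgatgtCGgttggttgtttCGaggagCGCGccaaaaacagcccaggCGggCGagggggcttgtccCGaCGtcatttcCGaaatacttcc
Cox8b: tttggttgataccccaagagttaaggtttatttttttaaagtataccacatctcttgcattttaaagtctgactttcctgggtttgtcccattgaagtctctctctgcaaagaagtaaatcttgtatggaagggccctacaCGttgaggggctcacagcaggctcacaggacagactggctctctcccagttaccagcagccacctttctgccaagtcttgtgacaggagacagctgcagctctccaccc
The printed stretch of Cox7a2 holds 14 CG dinucleotides and that of Cox7a1 holds 4. The stretch of Cox8a holds 11 and that of Cox8b holds 1.

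Over whole windows of 300 bases, the measured subunits had a median of 19 CG dinucleotides, with a range of 8 to 43 over 66 windows of 61 genes. The median was 21 over the windows of all measured genes and 7 over all 32851 windows. The 4 tissue forms with a window had 2 (Cox8b), 7 (Cox7a1), 10 (Cox6b2) and 10 (Cox7b2). The measured subunits' median was thus near that of measured genes in general, and the 4 tissue forms lay at or below 10. Motifs of 3 kinds, bound by known regulators of nuclear-encoded mitochondrial genes, were searched on both strands. The motif CGCANGCG, the core of the kind bound by Nrf1, occurred in 26 of the 66 windows (39.4%), against 18.2% of the windows of measured genes and 8.21% of all windows. The motif CCGGAAG, of the Ets kind bound by Gabpa, occurred in 17 (25.8%), against 19.4% and 8.86%. The motif AAGATGGCG, of the kind bound by Yy1, occurred in 6 (9.09%), against 3.32% and 1.4%. No matches of different motifs overlapped, and 26 of the 66 windows held none of them. A match is a description of the sequence and not a measured site. Both CGCANGCG and CCGGAAG occurred in the windows of 8 subunits, among them Cox6a1, Atp5h, Sdhd and Uqcr11. Cox6a1 is shown as the subunit with the highest reading, at chr5:115348959-115349208 (minus strand), with motif matches in capitals.
Cox6a1: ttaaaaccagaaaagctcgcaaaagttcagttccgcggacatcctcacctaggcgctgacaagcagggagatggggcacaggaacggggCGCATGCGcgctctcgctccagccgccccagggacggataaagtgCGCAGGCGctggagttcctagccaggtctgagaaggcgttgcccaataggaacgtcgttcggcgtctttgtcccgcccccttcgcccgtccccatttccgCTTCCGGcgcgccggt
The capitals mark 2 matches of CGCANGCG and 1 of CCGGAAG, the latter on the reverse strand.

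Between genotypes, the subunits were nearly equal. Differences are given as the fl/fl log2 value minus the fl/wt log2 value. They ran from -0.21 (Ndufb1) to 0.11 (Atp5l), with a median of -0.014 beside -0.0045 over all 9774 measured genes. No subunit was 1.5-fold higher (background 0.246% of measured genes) and none was 1.5-fold lower (background 0.399%). Of the 72, 25 were higher and 47 lower in fl/fl, or 65.3% lower, beside 52.5% of all measured genes. With each array centred on its median the share lower was 87.5% of the subunits and 68.5% of all measured genes, so the split depends on the scaling. In size, 3 subunits differed by at least 0.1, beside 26.8% of all measured genes. Most subunits have bright probe sets, where differences are small in general. Among measured genes with a mean of at least log2 12, 4.8% differed by 0.1 or more, and among the 58 subunits at that level 1 did. Of the same 58, 65.5% were lower in fl/fl, beside 54.7% of all such genes. The median size of the difference was 0.023 for those 58 subunits and 0.028 for all such genes. The subunits' spread was thus close to that of other genes of high level. In sorted bulk cells, fewer cells of a type and less RNA per cell cannot be told apart.

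**Figure D2:**
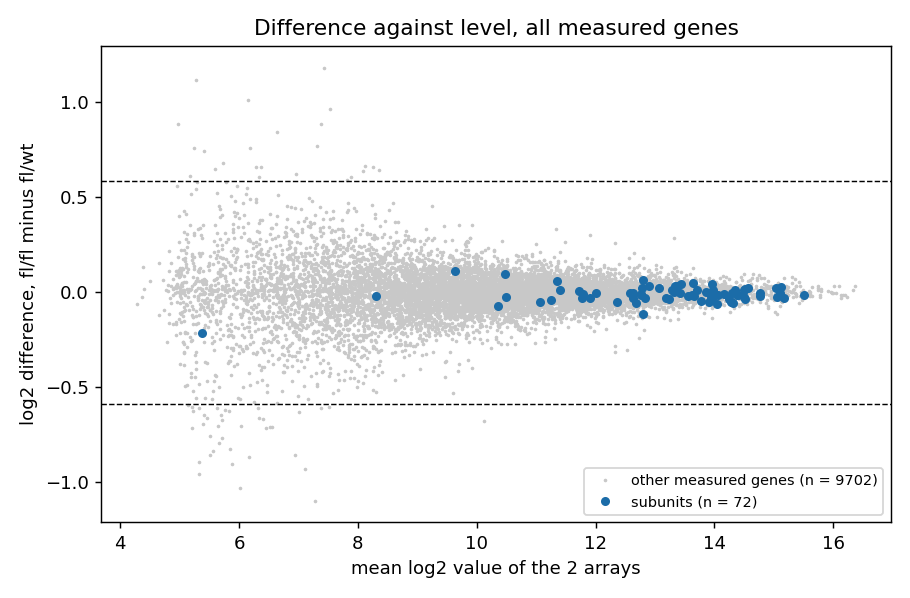
Log2 difference between genotypes (vertical axis) against the mean log2 value of both arrays (horizontal axis) for 72 subunits (blue) and the other measured genes (grey), with dashed lines at 1.5-fold. The subunits sit mostly at the bright end, where grey points also scatter little, and none reaches a dashed line.

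As checks on the samples, the Stat3 gene had 3 measured probe sets, which differed by -0.0083, -0.019 and -0.083, and the sources used here do not place them against the floxed exons, so directions rest on the labels. Of 6 Treg and T cell markers 5 were measured in both arrays, and the Foxp3 probe set lay under log2 5 (4.09 in fl/wt against 3.52 in fl/fl). Markers of other cells were present too: all 4 macrophage markers were measured, from 12.04 to 14.00, and 3 B cell markers from 7.15 to 10.34. Summed over the list, macrophage markers read 15.02 in fl/wt against 15.01 in fl/fl, and B cell markers 10.70 and 10.63. Of 3 red cell markers with a probe set, only Alas2 was measured, at 6.26 and 5.97, and Hba-a1 lay at 1.64 and 1.65. The part of other cells in the subunits' levels was not tested.

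Complex I takes electrons from NADH. Its 32 measured subunits had a median difference of -0.014, 10 being higher and 22 lower. Of the 6 measured core subunits, which carry the flavin and iron-sulphur clusters or line the ubiquinone site, 5 were lower and 1 was higher (median -0.022). Ndufv1, which binds the flavin that accepts electrons from NADH, read 13.20 in fl/wt against 13.17 in fl/fl (difference -0.028), and its other 2 measured probe sets differed by -0.033 and -0.047. Ndufv2, an iron-sulphur protein beside it, read 13.94 and 13.89, a difference of -0.049, while another of its probe sets differed by 0.031. Ndufs1, the largest iron-sulphur subunit, differed by -0.0076. Of the subunits nearer to ubiquinone, Ndufs7 differed by -0.027, Ndufs8 by -0.017 and Ndufs3 by 0.012. All measured probe sets of Ndufv1, Ndufs7 and Ndufs8 were on the lower side, none by more than 0.061. Ndufs3, with 1 probe set, was the core subunit on the other side. With centred arrays it was at -0.020, beside a median of -0.036 over all measured genes.

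The 26 accessory subunits of complex I had a median of -0.0099, and 22 of them differed by less than 0.05 in size. Ndufa13 read 14.08 in fl/wt against 14.06 in fl/fl (difference -0.015). Ndufb1, a small subunit of the membrane arm, had the largest difference of the set, from 5.49 to 5.27. It was also the dimmest measured subunit, close to the level of 5, and was read by a single probe set. With 32 added on the linear scale its difference was -0.12. Ndufs5 followed at -0.071 (10.39 and 10.32), then Ndufa2 at -0.058 (14.34 and 14.28). Ndufa3 differed by -0.053, with its other probe sets at -0.080 and 0.21. On the higher side, Ndufa6 differed by 0.041 and Ndufa9 by 0.035. Ndufs4, an accessory subunit needed for a stable complex, differed by -0.032, and its dimmer probe sets ran from -0.16 to 0.048. The Ndufb4 probe set lay under log2 5 in both arrays (2.17 and 2.18); its other probe sets are paired with several genes and were not used.

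**Figure D3:**
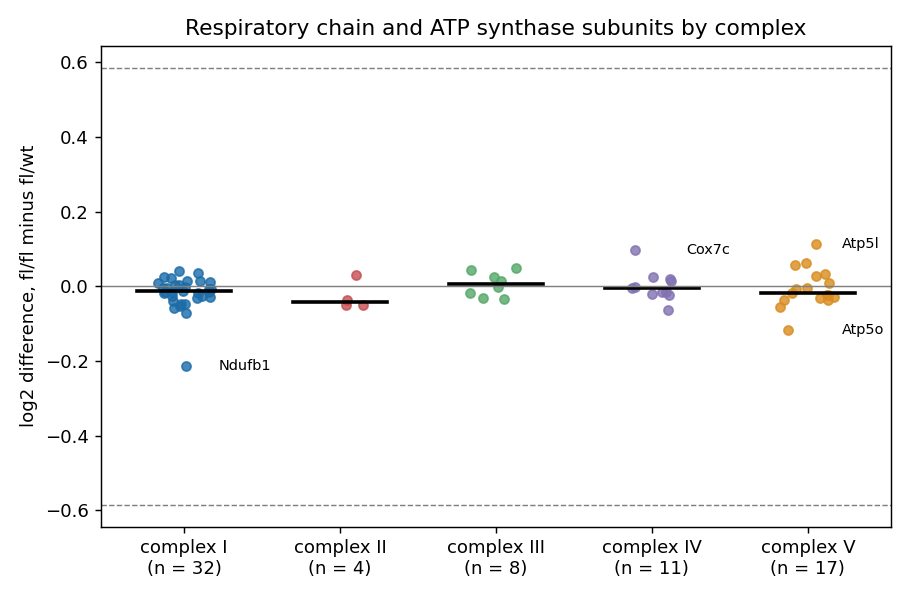
Log2 difference, fl/fl minus fl/wt (vertical axis), of each measured subunit by complex; points are genes, black bars are medians, and dashed lines mark 1.5-fold. The medians lie between -0.043 (complex II) and 0.0053 (complex III), and only Ndufb1, Atp5o and Atp5l are 0.1 or more from 0.

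Complex II, succinate dehydrogenase, is shared with the citric acid cycle and has no subunit from mitochondrial DNA. Its flavoprotein Sdha read 13.25 in fl/wt against 13.21 in fl/fl (difference -0.036). Its iron-sulphur subunit Sdhb read 13.36 and 13.39, a difference of 0.031. The membrane anchors Sdhc (12.39 and 12.34) and Sdhd (11.09 and 11.04) differed by -0.049 and -0.051. With 3 of 4 lower, the median was -0.043. The second probe set of Sdhc differed by -0.26 and that of Sdhd by 0.043, so the probe sets of the anchors did not give 1 size or direction. With each gene read as the median level of its measured probe sets in each array, the complex II value was -0.012.

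Complex III passes electrons from ubiquinol to cytochrome c. Of its 8 subunits in the set, all with symbols that begin with Uqcr, 4 were higher and 4 lower. Their median was 0.0053, beside -0.0045 over all measured genes. With centred arrays it was -0.026, beside -0.036 over all measured genes. Uqcrfs1, the Rieske iron-sulphur protein, read 13.61 in fl/wt against 13.66 in fl/fl (difference 0.049). The core protein Uqcrc1 read 13.94 and 13.98, a difference of 0.044, and its partner Uqcrc2 14.27 and 14.23, a difference of -0.034. The 2 core proteins thus lay on opposite sides of 0. On their brightest probe sets, the small subunits Uqcrb (0.024), Uqcrh (0.013), Uqcr11 (-0.0022), Uqcr10 (-0.019) and Uqcrq (-0.032) lay between the larger ones. Other probe sets lay outside that range, with Uqcrb at -0.081 and Uqcr10 at -0.12 and 0.073.

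Complex IV, cytochrome c oxidase, was represented by 4 higher and 7 lower subunits; the median was -0.0047, or 0.00091 with quantile normalisation. Cox7c had the largest difference, reading 10.42 in fl/wt against 10.52 in fl/fl (difference 0.096). Its other probe set differed by 0.13, so both lay on the higher side. Cox7a2l differed by -0.063, with its other probe sets at -0.036 and 0.065. Cox5a, which together with Cox5b surrounds the catalytic core, differed by -0.020 and Cox5b by 0.024. Cox6c differed by 0.019. None of these directions held over all probe sets. The others ran from 0.0019 to 0.069 for Cox5a and from -0.060 to 0.034 for Cox5b, and that of Cox6c was at -0.017. The brightest probe set of Cox8a differed by -0.022 and a dimmer one by -0.24.

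ATP synthase joins a catalytic head to a rotor and a membrane part. Of its 17 subunits, 11 were lower and 6 higher (median -0.019), and 12 differed by less than 0.05 in size. In the head, Atp5a1 (subunit alpha) read 14.53 in fl/wt against 14.50 in fl/fl, and Atp5b (subunit beta, which holds the catalytic sites) 13.97 and 13.93. Their differences were -0.037 and -0.036, and the other probe sets of Atp5a1 lay at 0.023 and 0.10. In the central stalk, Atp5c1 (gamma) differed by -0.023, Atp5d (delta) by 0.0098 and Atp5e (epsilon) by 0.062. Atp5o, which links the head to the outer stalk, read 12.86 and 12.74, a difference of -0.12. It was the only subunit of at least log2 12 to differ by 0.1 or more, and its other probe set read 12.18 in both arrays. Of the other stalk subunits, Atp5pb differed by -0.0034, Atp5h by -0.031 and Atp5j by -0.022. Atp5l, a small membrane subunit, read 9.58 and 9.70, a difference of 0.11, from a single probe set. Atp5j2 (-0.0082), Atp5k (-0.019), Atp5mpl (-0.029) and Atp5md (0.033), also membrane subunits, differed less. The other probe sets of Atp5k lay at 0.055 and 0.071, on the higher side.

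The rotor ring of ATP synthase is made of subunit c, which 3 genes encode with the same mature protein. All 3 were measured, unlike the tissue forms of complex IV. Atp5g1 read 11.32 in fl/wt against 11.37 in fl/fl (difference 0.058). Atp5g2 read 12.71 and 12.65, a difference of -0.055. Atp5g3 read 15.10 and 15.13, a difference of 0.028. A dimmer probe set of Atp5g2 differed by 0.27, the largest positive value of any measured probe set of the subunits. No common direction was therefore seen among the 3 genes.

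Probe sets that read the same subunit bear on how far such small differences can be read. Of the 72 measured subunits, 44 had at least 2 measured probe sets, and in 21 of these all pointed 1 way while in 23 they did not. The SD between probe sets of the same subunit was 0.079 on the log2 scale. Only 4 subunits (Ndufb1, Atp5o, Atp5l and Cox7c) had a difference larger in size than this SD. The median size of the difference was 0.022 for the brightest probe sets of these genes and 0.043 for their 68 dimmer ones. No measured probe set of a subunit passed 1.5-fold, and 6 of 140 differed by 0.2 or more, of which 5 were dimmer probe sets. The largest was the dimmest probe set of Ndufb2 at -0.46 (6.65 in fl/wt against 6.19 in fl/fl), while the 2 brighter ones differed by -0.039 and -0.027.

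**Figure D4:**
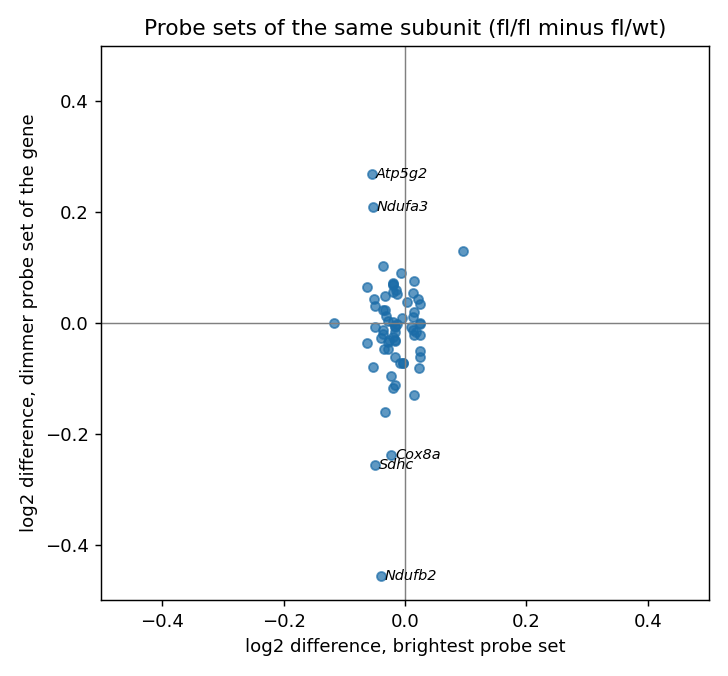
Log2 difference, fl/fl minus fl/wt, of each dimmer measured probe set (vertical axis) against that of the brightest probe set of the same gene (horizontal axis), for 44 subunits and 68 dimmer probe sets. Vertical scatter exceeds horizontal scatter, and the dimmer probe sets run from -0.46 (Ndufb2) to 0.27 (Atp5g2).

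Assembly factors, which build the complexes and are not part of them, were set beside the subunits. Of 53 listed, 46 were measured, 30 of them lower and 16 higher (median -0.044), beside 52.5% lower among all measured genes. None passed 1.5-fold (background 0.246% higher and 0.399% lower). Most factors read between log2 8 and 12, where 25.1% of measured genes differed by 0.1 or more, and 10 of the 46 factors did. For complex II all 4 factors were lower, with a median of -0.15, and 3 of them differed by 0.1 or more. Sdhaf3 read 9.10 in fl/wt against 8.82 in fl/fl (difference -0.28). Sdhaf1 read 11.94 and 11.77 (-0.17), Sdhaf4 9.74 and 9.61 (-0.13) and Sdhaf2, which helps attach the flavin to Sdha, 10.65 and 10.55 (-0.093). The second probe set of Sdhaf2 was lower as well, by -0.056, and the other 3 genes had 1 measured probe set each. The SD between probe sets of a gene, over all measured genes, was 0.15, as large as the median of these 4. On their brightest probe sets the complex II subunits ran from -0.051 to 0.031, but the dimmer probe set of Sdhc, at -0.26, lay within the range of the factors, and no test of the difference was possible. Over the 9 alternative settings the median of the 4 ran from -0.18 to -0.15. Changing the level for a measured gene or the choice of probe sets left this median as it was. With 3 of the genes read by 1 measured probe set, those settings could hardly move it and are no check on it. For complex III all 5 measured factors were lower, with a median of -0.081, led by Uqcc2 at -0.14, although a dimmer probe set of Uqcc1 differed by 0.18. The factors of complex V had 1 higher and 3 lower (median -0.091, with Fmc1 at -0.15). Those of complex IV had 7 higher and 12 lower (median -0.031), with the haem synthesis enzyme Cox10 at -0.13. Those of complex I had 8 higher and 6 lower (median 0.0081), with Acad9 at -0.14 and Tmem186 at 0.11. Neither direction held over probe sets: a second one of Acad9 differed by 0.020, and the others of Tmem186 by -0.13 and -0.045.

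For the counts that follow, 52.5% of all measured genes were lower in fl/fl. Genes of the mobile carriers, cytochrome c and ubiquinone, were higher in 7 cases and lower in 7 (median 0.0021). Coq8b, a kinase-like protein of ubiquinone synthesis, differed by -0.15 and Coq10a by -0.11. Regulators of mitochondrial gene expression were higher in 14 cases and lower in 7. Their median was 0.029, beside -0.0045 over all measured genes. With centred arrays it was -0.0028, beside -0.036 over all measured genes. With each gene read as the median level of its measured probe sets in each array it was -0.0028, beside -0.0046. Mterf2 (0.15) and Mterf1a (-0.15) differed most, in opposite directions. Of 13 subunits encoded in mitochondrial DNA, only ND5 of complex I had a probe set of its own, which read 13.88 in fl/wt against 13.80 in fl/fl (difference -0.080).

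**Figure D5:**
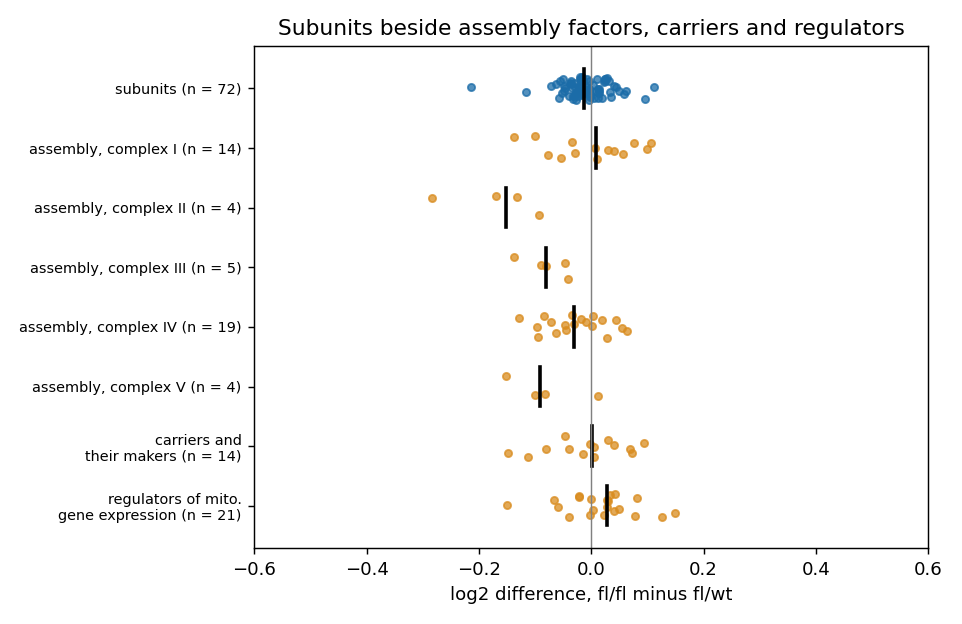
Log2 difference, fl/fl minus fl/wt (horizontal axis), of 72 subunits (blue) and of measured assembly factors, carrier genes and regulators (orange); points are genes and black bars are medians. The 4 assembly factors of complex II lie between -0.28 and -0.093, and the other lists scatter around or closer to 0.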

How the data were processed

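RNA from sorted Treg was hybridised to Affymetrix arrays, 1 per genotype. The deposited values are log2 values that the authors made with GCRMA, per the submitters' processing notes; its version and settings and the genome build are not stated there. The method corrects background by probe sequence and equalises arrays, which compresses dim values.

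By the platform annotation 34958 probe sets had 1 symbol, 932 several and 9211 none. All 81 subunit symbols matched RefSeq (GRCm38.p6) by Entrez identifier. Genes under log2 5 in both arrays were left out, and single values under 5 were set to 5. A change was called at 1.5-fold. Any member could be named, with emphasis on the 5 largest differences in each direction, the 5 highest and 5 lowest levels, isoform pairs, core subunits and the 5 largest differences of each context list. The members and lists were chosen with earlier results of these data known, and the promoter motifs after the values were seen. Alternatives varied the floor, an added constant of 32, probe set choice, scaling and fold. The 1.5-fold call was tested on a copy of the fl/wt values with small noise and shifts larger than 1.5-fold added. That test does not bear on differences as small as those of the subunits. Python 3.11.15, numpy 2.4.6, pandas 2.3.3 and statsmodels 0.14.6 were used.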

Additional observations from a re-analysis of the deposited data

How the results depend on the processing

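No subunit passed 1.5-fold or 2-fold under any of the 10 alternatives. With each gene read as the median level of its measured probe sets in each array, the median difference over all subunits was -0.0029, against -0.014. Such a value is a difference of medians and not the median of the probe sets' differences. For Uqcr10, whose probe sets differed by -0.019, 0.073 and -0.12, it was 0.073. With arrays centred on their medians, the median over all subunits was -0.045, beside -0.036 over all measured genes. Centring, which rests on array medians that lie among dim probe sets (3.47 and 3.50), also gave -0.045 for complex I, -0.026 for complex III, -0.036 for complex IV and -0.050 for complex V, with 9 subunits higher in fl/fl. With the median levels of measured probe sets, the complex V median was 0.0010. The cause was not tested. Without probe sets of shared suffix 31 of 53 subunits were lower, with fewer genes tested. Values of single subunits stayed within 0.079, the SD between probe sets of the same subunit, in 616 cases and moved further in 12. Many of the 616 were fixed in advance. Changes of the floor left every retained value as it was, and centring shifted all values by the same amount, which is under 0.079. Most of the 12 came from the choice of probe sets. In sign, 33 of 72 subunits changed under at least 1 alternative, and some changed under several. Centring, a shift of all measured genes alike, changed 16. Either choice of probe sets changed 11, quantile normalisation 6 and a loess correction of the difference by level 4. Settings for assembly factors, carriers and regulators were chosen after the data were seen. No paired analysis was possible because each genotype had 1 array.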
